A study of Mus musculus with 4 samples.

Results

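The regions described are clusters of CstF64 CLIP alignments that lie far from every mapped cleavage site of the same strand. They were chosen by measured values, namely their number of alignments and their distance to 3'READS reads, so these values describe them and are no finding. Midpoints of the alignments of both CLIP replicates were chained on each strand of the autosomes at gaps of at most 50 nt. A far cluster had 10 or more distinct alignments in each replicate and lay more than 1000 nt from any cleavage cluster, which is a group of 3'READS positions chained at 24 nt that holds 3 or more reads. Of 7216 autosomal CLIP clusters with 10 or more alignments in each replicate, 3618 (50.1%, 95% exact interval 49.0 to 51.3) were far. The other 3598 are called near clusters. Without replicate 1, so that the minimum applied to the deeper replicate 2 alone, 5811 clusters were far; without replicate 2 there were 3691. A minimum of 5 alignments gave 16019 far clusters, one of 20 gave 779, and leaving out alignments of 50 nt or longer gave 2254. Among the 685689 autosomal CLIP clusters of any size, 84.8% lay more than 1000 nt away, and since distance is part of the rule nothing is read from the difference.

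CstF64 contacts RNA for the cleavage stimulation factor, a complex that recognises U- and GU-rich sequence just downstream of the place where a pre-mRNA is cut and polyadenylated. It acts beside the cleavage and polyadenylation specificity factor, which reads the poly(A) signal upstream. CstF64 also takes part in the 3′ processing of replication-dependent histone mRNAs, which carry no poly(A) tail and are therefore poorly seen by methods that capture poly(A). A cluster of CstF64 crosslinks with no mapped cleavage site beside it is described here through its shape, its place and the few poly(A) ends inside it.

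The CLIP samples were 2 replicates of proliferating C2C12 cells, a mouse myoblast line, irradiated with UV light, with RNA trimmed by RNase T1 and complexes taken with an antibody to CstF64. No genotype change or drug is named for them. Complexes of a fixed size range were taken from a gel, and no library without the antibody was used here. The cleavage sites came from a separate RNA sample. They were mapped by 3'READS, which sequences poly(A)-containing RNA fragments, in a commercial mix of 11 mouse cell lines, 1 library captured with the CU5T45 oligo and 1 with oligo(dT)10-25. The lines of the mix are not named in the labels used here, so a site used in C2C12 cells alone could be absent from the map, and how many far clusters that concerns was not tested. The files held 1101047 and 1352122 CLIP alignments and 6738355 (CU5T45) and 3482826 (oligo(dT)10-25) 3'READS reads.

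Over 4413 clusters of 20 or more alignments more than 1000 nt away, chi-square divided by its degrees of freedom was 0.247 between the alignment counts of the CLIP replicates, and 0.334 between their read counts. Of the alignments under 50 nt that replicate 1 placed in far clusters, 91.0% were also in replicate 2, and in the other direction 78.4% were shared. Because sampling noise alone exceeds these differences, the pair was treated as 1 sample. The labels used here do not say whether separate cultures were used. Values are therefore given for each replicate without an SD, no p-value is given, and intervals cover counting error or the spread over clusters only. Each cluster is called by its mm9 coordinates. Gene names and sequence of these positions were not analysed here, because the annotation at hand was of another build.

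Far clusters were short, dense stacks of alignments on 1 strand. The distance between their outer midpoints had a median of 74 nt (interval of the median 72 to 76) and ran from 6 to 683 nt, with quartiles at 42 and 115 nt. Near clusters were longer, with a median of 89 nt (86 to 92). Only 4.98% of the far clusters reached 200 nt, against 9.73% of the near ones. At the other end, 3.40% of the far and 2.22% of the near clusters were under 20 nt long. Far clusters held a median of 13 alignments in replicate 1 and 16 in replicate 2, while near clusters held 15 and 18. Density was the alignments of both replicates per 100 nt of length, where an alignment found in both counted for each. It had a median of 45.0 (43.8 to 46.4) in far clusters, beside 41.4 (40.3 to 42.9) in near clusters. This gap of 3.58 shrank to 0.714 when midpoints were chained at 25 nt, and its interval included 0 in 6 of 18 alternatives. Chaining at 25 or 100 nt moved the median length of far clusters to 45 or 164 nt and their density to 71.8 or 20.7. With a single sample these differences have no test.

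**Figure D1:**
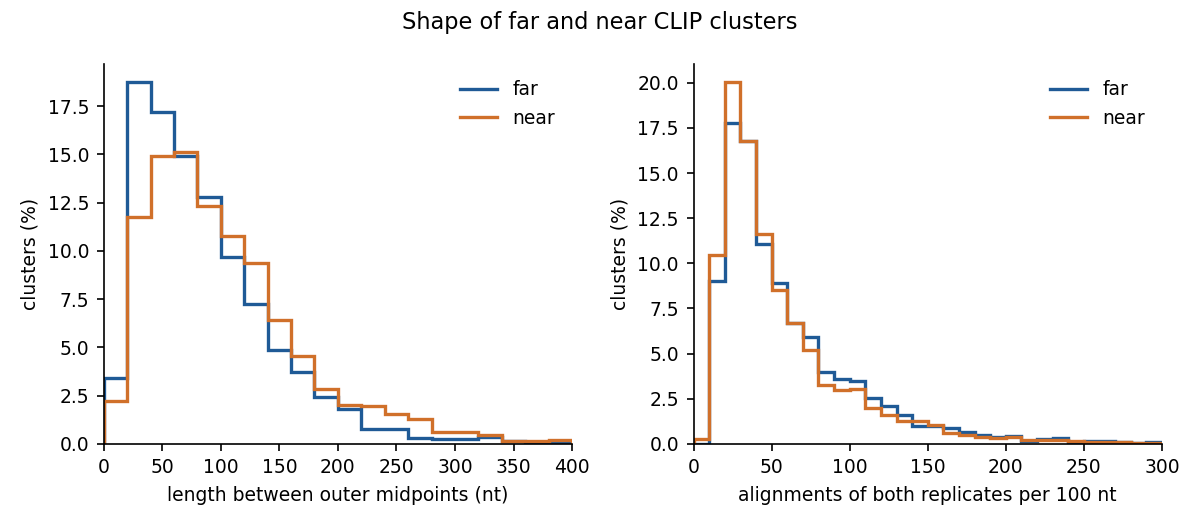
Length between the outer alignment midpoints in nt (left) and alignments of both CLIP replicates per 100 nt (right), as the percentage of 3618 far and 3598 near clusters in each bin; lengths over 400 nt and densities over 300 are not drawn. The far clusters are shifted to shorter lengths (median 74 against 89 nt), while the density curves nearly overlap (medians 45.0 and 41.4).

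Alignments were concentrated within each far cluster. The most crowded 20 nt held a median of 66.0% of the midpoints (65.1 to 66.7), beside 60.3% (59.3 to 61.3) in near clusters. Far clusters were also shorter and held fewer alignments, and the share was not adjusted for either. A stack with 1 fixed end was uncommon: the most frequent 5′ end took a median of 18.5% of the alignments and the most frequent 3′ end 18.8%. In near clusters these were 17.4% and 18.2%. The median alignment length of a cluster had a median of 38 nt over far clusters, against 37 nt over near clusters. The mean number of reads per alignment of a cluster had a median of 1.11 over far clusters and 1.12 over near clusters. In the flanks, from 200 to 1000 nt on either side, the median density was 1.62 alignments per 100 nt (1.56 to 1.75). Beside near clusters it was higher, at 2.68 (2.56 to 2.81). The rule itself selects dense stretches, so no fall from cluster to flank is read from this. The difference between far and near flanks was not adjusted for the alignments in the clusters. No alignment at all was found in the flanks of 133 far clusters (3.68%) and 33 near clusters (0.917%).

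The strand was nearly exclusive. Of all alignments centred within the bounds of far clusters, 0.118% were on the opposite strand, 164 of 139024, and 98.5% of the far clusters had none. Within near clusters the strand was nearly exclusive too, with 0.273% on the opposite strand, 510 of 186821. A cleavage cluster of the opposite strand lay within 1000 nt of 87 far clusters (2.40%) and overlapped 7. Over all 7216 clusters, 6.24% had an opposite-strand cleavage cluster within 1000 nt and 49.9% one on the same strand.

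The far clusters with most alignments differed widely in form. They are ranked here, and called largest, by the alignments of the replicate that had fewer. The first, chr14:66918693-66919375 on the plus strand, had 332 alignments in replicate 1 and 370 in replicate 2. It was also the longest at 683 nt, and its most crowded 20 nt held 39.7% of the midpoints. Another of the 10 largest followed it on the same strand at chr14:66920000-66920476, with 162 and 184 alignments. They belonged to a locus of 8 far clusters, and the second ended 9374 nt before the next downstream cleavage cluster, which had 5 reads.

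The second largest was the opposite in shape. At chr8:72085415-72085479, minus strand, 235 and 273 alignments were stacked in 65 nt, the highest density of all far clusters at 782 per 100 nt. Its flanks had 0.125 alignments per 100 nt, and no other far cluster was within 10 kb. The nearest cleavage cluster lay 48922 nt upstream and held 3 reads. Its alignments had 579 reads in replicate 1 and 753 in replicate 2.

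At chr9:41399122-41399359, plus strand, 173 and 217 alignments lay 1545 nt before a cleavage cluster of 18 reads, in a locus of 21 far clusters. At chr17:30201938-30202116, plus strand, 153 and 173 alignments lay 143239 nt from the nearest site, and no other far cluster was within 10 kb. At chr18:40467737-40468019, minus strand, 122 and 145 alignments spread over 283 nt, and the flanks held none. At chr3:55273711-55273805, plus strand, 138 and 164 alignments lay 1433 nt before a cleavage cluster of 10 reads. The other 3 of the 10 were chr2:13495963-13496457 on the plus strand (154 and 160 alignments), chr11:55212112-55212184 on the minus strand (120 and 138) and chr1:59704873-59705028 on the minus strand (114 and 160). Replicate 2 gave more alignments than replicate 1 at all 10 of these, as in the libraries as a whole, whose autosomal alignments stood at a ratio of 1.23.

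Among the longest far clusters, chr10:119797837-119798514 on the minus strand reached 678 nt with 111 and 136 alignments, a density of 36.4. The others of the 5 longest measured 498 to 542 nt, apart from the chromosome 14 cluster above. The densest clusters after that of chromosome 8 were narrow. At chr1:179380882-179380908, plus strand, 73 and 80 alignments had midpoints within 27 nt and 0 alignments lay in the flanks, and at chr11:21045118-21045146, plus strand, 53 and 75 lay within 29 nt. At chr8:26658172-26658209, plus strand, 85 and 82 lay within 38 nt. The third in density, chr18:36961641-36961646, plus strand, had all 30 midpoints (14 and 16) within 6 nt, a density of 500 per 100 nt. So the highest densities came from short stacks, and the rank of the smallest of them rests on few alignments.

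Values near the thresholds show how the rule divides like clusters. The nearest to the limit on the far side were chr17:45708396-45708460, minus strand, at 1001 nt (22 and 32 alignments), chr18:6788625-6788723, plus strand, at 1001 nt (29 and 29) and chr18:35720357-35720376, plus strand, at 1002 nt (10 and 13). On the near side were chr1:64580270-64580319, plus strand, at 999 nt (29 and 33 alignments), and chr18:77386674-77386937 and chr18:77390742-77390860, both plus strand, at 997 nt (22 and 26, 14 and 20). By alignments, chr17:45709526-45709644, minus strand, with 10 and 26, chr1:55133044-55133081, minus strand, with 10 and 25, and chr4:43575177-43575300, minus strand, with 10 and 24, were inside. Just outside were chr2:164859596-164859694, minus strand, with 9 and 20, chr17:63518441-63518481, minus strand, with 9 and 18, and chr4:84111556-84111606, minus strand, with 9 and 18.

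Most far clusters lay well past the limit of 1000 nt. The distance to the nearest same-strand cleavage cluster had a median of 18996.5 nt (17241 to 20328), with quartiles at 4537 and 62653 nt. It was 7312 nt when 1 read made a cleavage cluster, and 37671 nt under a limit of 5000 nt. Between 1 and 2 kb there were 412 far clusters (11.4%), and 604 (16.7%) were over 100 kb from any site. The nearest cleavage cluster had a median of 9 reads (8 to 10) for far clusters and of 20 (19 to 24) for near clusters that did not overlap one. No median over all cleavage clusters is given here.

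**Figure D2:**
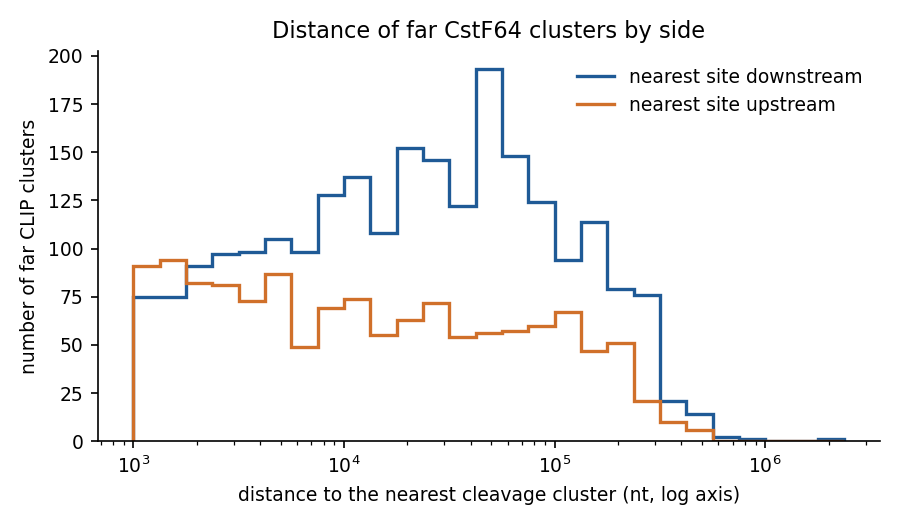
Number of far CLIP clusters (vertical axis) by distance to the nearest same-strand cleavage cluster in nt (horizontal axis, log scale), with the nearest site downstream in blue and upstream in orange. The upstream curve is the higher one in the bins just past 1000 nt and the downstream curve in the bins beyond, adding up to 2299 downstream and 1319 upstream.

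The nearest cleavage site was more often downstream, in the direction of transcription. This held for 2299 of the 3618 far clusters, 63.5% (62.0 to 65.1). Of all 581796 autosomal CLIP clusters of any size more than 1000 nt away, 62.4% had the nearest site downstream, so the share of the far clusters is near that background. It was 61.6% for clusters of 1 alignment and 63.2% for those of 20 or more. With each locus counted once, the share was 62.2%, although neighbouring loci can still share their nearest site. When a single 3'READS read was enough for a cleavage cluster, it fell to 51.7%, and the background fell to 53.3% with it.

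The share with the nearest site downstream was lowest next to the limit of 1000 nt, both for far clusters and for the background. Between 1 and 2 kb, 46.1% of the far clusters (41.2 to 51.1) had the nearest site downstream, and 46.1% of all sizes. From 2 to 5 kb it was 54.8% (50.6 to 58.9) beside 50.7%, and from 5 to 10 kb 64.4% (59.6 to 69.1) beside 60.1%. From 50 to 100 kb it reached 71.8% (67.5 to 75.7) beside 68.0%, and from 100 to 500 kb it was 66.0% (62.1 to 69.9) beside 64.2%. Over 500 kb there were only 12 far clusters, with a share of 91.7% (61.5 to 99.8) beside 60.6%. Neither median length, between 58.5 and 81 nt, nor median density, between 39.1 and 68.4, had a steady course over the 8 classes of distance.

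**Figure D3:**
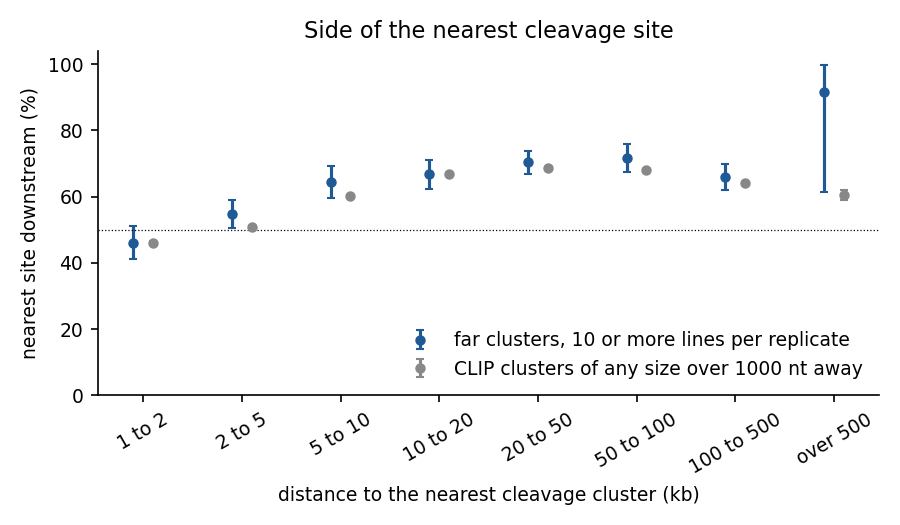
Percentage of clusters whose nearest same-strand cleavage cluster is downstream (vertical axis) in 8 classes of distance in kb (horizontal axis), for far clusters (blue) and CLIP clusters of any size over 1000 nt away (grey), with exact 95% intervals; the dotted line marks 50%. Both rise from 46.1% between 1 and 2 kb to 70.4% (far) and 68.7% (any size) from 20 to 50 kb. From 100 to 500 kb they are 66.0% and 64.2%, and the last class holds 12 far clusters.

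The 5 most remote far clusters held 10 to 15 alignments in replicate 1 and 10 to 23 in replicate 2. The medians over all far clusters were 13 and 16. The farthest, chr1:102076765-102076792 on the minus strand, had 14 and 23 alignments and lay 2359092 nt before the next downstream cleavage cluster and 2508859 nt after the previous one. It held 2 single-read 3'READS positions, 1 from each library. The next, chr12:20304647-20304652 on the plus strand at 971379 nt, had 10 and 10 alignments, of which 80.0% shared 1 5′ end. At chr8:30397066-30397091, minus strand, 13 and 14 alignments lay 639846 nt away. At chr1:115800572-115800722 and chr2:6998380-6998413, both minus strand, 15 and 22 and 15 and 17 alignments lay 574845 and 531002 nt away.

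Low-read poly(A) ends were gathered inside far clusters. A low-read end is a 3'READS position in a group that stayed below the 3 reads of a cleavage cluster, so it holds 1 or 2 reads. Of the 3618 far clusters, 239 (6.61%, 5.82 to 7.46) had at least 1 such end between their outer midpoints, against 0.23% of all autosomal CLIP clusters of any size more than 1000 nt away, which are mostly much shorter. Per length, the far clusters held 287 ends in 317 kb, 0.906 per kb (Poisson interval 0.804 to 1.02). Windows of equal length 500 nt upstream held 45 ends, 0.142 per kb (0.104 to 0.190), and those 500 nt downstream 48, 0.151 per kb (0.112 to 0.201). The bounds of the clusters thus held 6.17 times the mean of both windows (4.87 to 7.88). This ratio was 3.98 with midpoints chained at 100 nt and 9.41 under a distance limit of 5000 nt. On the opposite strand the same bounds held 7 ends, 0.0221 per kb (0.00888 to 0.0455). All these windows lie within 1000 nt of the cluster, where the rule allows no cleavage cluster on the same strand, so the same-strand windows share that condition.

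The ends lay around the middle of the alignments and somewhat more often past it. In the 50 nt downstream of the median midpoint there were 200 ends (173 to 230) and in the 50 nt upstream 138 (116 to 163). From 200 to 500 nt on both sides, each 50 nt held 20 to 30. Within 100 nt of the median midpoint, 277 of 478 ends (57.9%, 53.4 to 62.4) were downstream. For comparison, at the 1503 near clusters that overlapped a cleavage cluster, 921 of the 1700 most used cleavage positions within 100 nt (54.2%, 51.8 to 56.6) were downstream. The intervals overlap. Both sets had most positions in the bin from 10 to 19 nt downstream, with 49 and 200, shared in the far clusters with the bin from 20 to 29 nt. At the overlapping clusters the bin from 0 to 9 nt held nearly as many, 194. These clusters were chosen for their overlap, so their cleavage positions lie near the alignments by selection. Nothing is read from the likeness of the 2 sets.

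**Figure D4:**
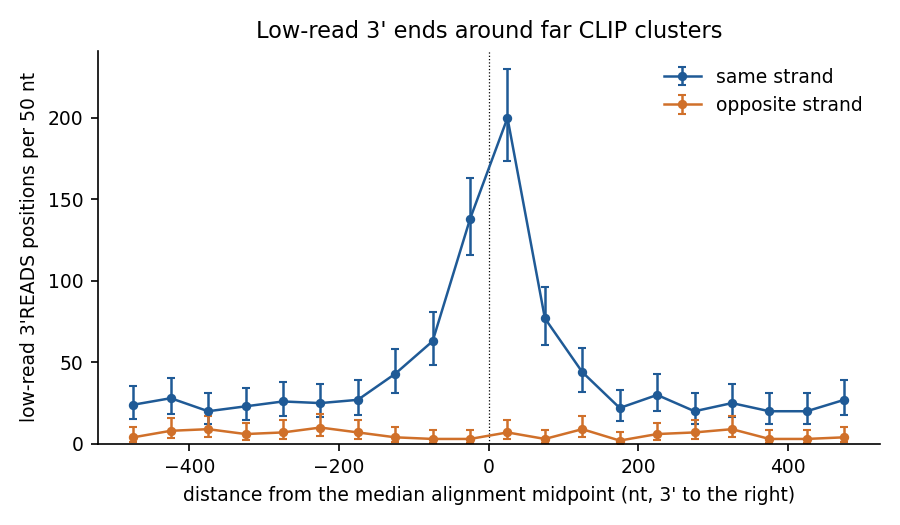
Number of low-read 3'READS positions per 50 nt (vertical axis) by distance in nt from the median alignment midpoint of the 3618 far clusters (horizontal axis, downstream to the right), on the same strand (blue) and the opposite strand (orange), with Poisson 95% intervals. The same strand peaks at 200 just downstream of the middle and falls to 20 to 30 beyond 200 nt, while the opposite strand stays at or below 10.

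More alignments went with more ends. Among clusters of any size more than 1000 nt away, those of 2 to 5 alignments had 0.169 ends per kb (0.152 to 0.186), those of 6 to 19 had 0.412 (0.382 to 0.442) and those of 20 or more had 0.884 (0.791 to 0.985). Of the 779 far clusters with 20 or more alignments in each replicate, 11.7% (9.51 to 14.1) had an end inside. The share was 9.95% for far clusters 1 to 2 kb from a site, 10.1% from 2 to 5 kb, 5.31% from 20 to 50 kb and 2.36% from 100 to 500 kb, while over 500 kb it was 8.33% of only 12 far clusters. Over all far clusters it was 3.60% with a minimum of 5 alignments in each replicate. With 10 reads for a cleavage cluster it was 11.4%, but every group below 10 reads then counted as low-read ends. The far clusters were then also a larger set, so this value is not like the others. How much RNA each locus made was not measured here, and its part in these relations was not tested.

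Both 3'READS libraries contributed. The CU5T45 library had 191 reads at ends inside far clusters, 29.9 per 1e6 autosomal reads (25.8 to 34.5), and the oligo(dT)10-25 library 136, or 42.9 (36.0 to 50.7). Over all low-read ends of the autosomes the libraries had 11511 and 16402 reads per 1e6, a difference in the same direction. Of the 239 far clusters with an end inside, 45 had reads from both libraries, 115 from CU5T45 alone and 79 from oligo(dT)10-25 alone. Most had a lone position: 198 far clusters had 1 end and 41 had 2 or more.

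The most ends in 1 far cluster were 4, at chr19:60844648-60844781 on the minus strand, with 32 and 49 alignments, 1 CU5T45 read and 3 oligo(dT)10-25 reads. There 38.3% of the alignments shared 1 3′ end and the flanks held none. At chr5:143666966-143667134, minus strand, 89 and 105 alignments enclosed 3 ends with 2 CU5T45 reads and 1 oligo(dT)10-25 read, and lay 1566 nt before a cleavage cluster of 58 reads. At chr6:29324573-29324713, plus strand, 55 and 52 alignments also enclosed 3 ends and lay 1961 nt before a cleavage cluster of 4 reads. Of the 10 far clusters with most alignments in the replicate that had fewer, chr14:66918693-66919375, chr2:13495963-13496457 and chr11:55212112-55212184 had 1 end each and chr3:55273711-55273805 had 2.

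Far clusters were also described by their grouping along the genome. No such share is given here for near clusters or clusters of any size, so no grouping beyond theirs is read from it. Chained on a strand at gaps of at most 10 kb, they formed 2306 loci, of which 1784 had a single far cluster. The other 522 loci held 1834 far clusters (50.7%), with a median span of 4177.5 nt and a median gap of 977 nt between neighbours. That share was 36.3% with a minimum of 20 alignments in each replicate and 71.1% with a minimum of 5. There were 282 loci of 2 far clusters, 190 of 3 to 5, 30 of 6 to 9 and 20 of 10 or more, the last with 387 far clusters (10.7%). In 452 of the 522 no cleavage cluster lay between the first and the last far cluster, but the rule itself bars a cleavage cluster from any gap of up to 2000 nt. Of the 314 loci with a wider gap, 244 (77.7%) held none. The rule still bars cleavage clusters from both edges of a wider gap and from all narrower gaps of these loci. How much of their sequence stayed open to a cleavage cluster was not measured, so nothing is read from this share.

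The largest locus was a run of 75 far clusters over 117 kb, chr10:119795331-119912711 on the minus strand. It held 1691 alignments of replicate 1 and 2199 of replicate 2 in far clusters. Those clusters were 19 to 678 nt long with a median gap of 556 nt, and each held 20 to 266 alignments of both replicates. With smaller clusters included there were 599 CLIP clusters with 3042 and 3907 alignments. Not 1 cleavage cluster lay within the run. The next downstream one was 215 kb away from its last far cluster and the previous upstream one 305 kb from its first. A single low-read end was found inside its 75 far clusters.

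The next 3 loci by number of far clusters each held cleavage sites. On the minus strand of chromosome 19, chr19:5822024-5845368 held 30 far clusters in 23.3 kb with 678 and 880 alignments, the shortest median gap of the 4 loci with most far clusters at 237 nt. It contained 11 cleavage clusters, the largest of 1141 reads. On the plus strand, chr19:9051464-9095894 also held 30, over 44.4 kb, with 582 and 707 alignments and 3 cleavage clusters, the largest of 312 reads. The locus chr15:27397071-27448840, plus strand, held 27 over 51.8 kb, with 399 and 474 alignments and 1 cleavage cluster of 3 reads. Of the 20 loci with 10 or more far clusters, 10 held no cleavage cluster.

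**Figure D5:**
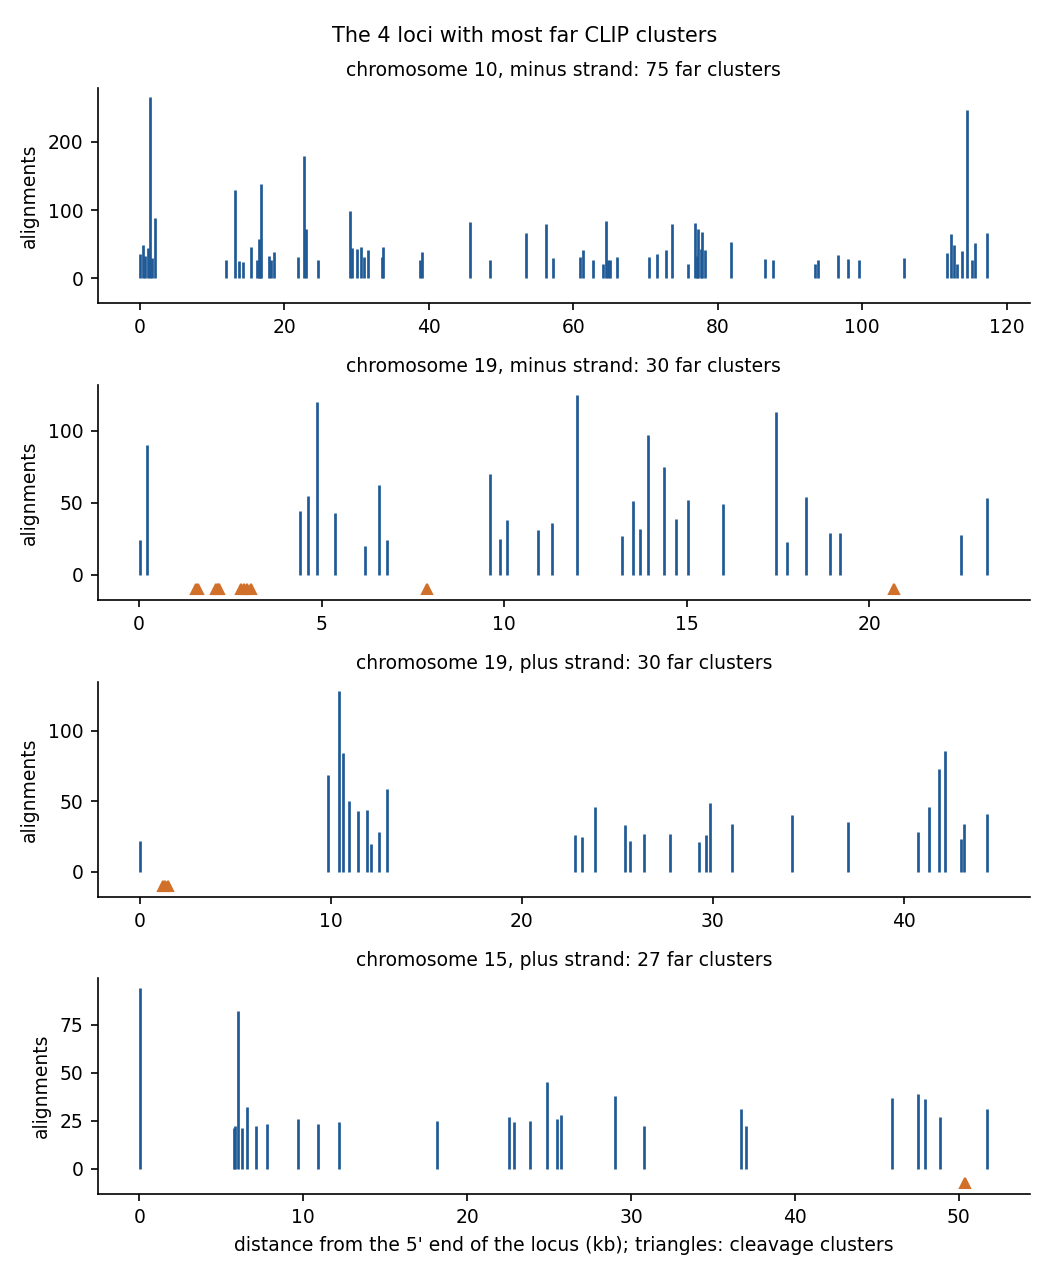
Alignments of both CLIP replicates in each far cluster (bar height) along the 4 loci with most far clusters, by distance in kb from the 5′ end of the locus; triangles mark same-strand cleavage clusters. The chromosome 10 locus shows 75 bars over 117 kb and no triangle, whereas the minus-strand locus of chromosome 19 shows 11 triangles.

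Chromosome 15 stood first in number. It had 403 far clusters, 11.1% of all, beside 7.31% of the near clusters and 6.62% of the autosomal CLIP alignments. Of its clusters with 10 or more alignments in each replicate, 60.5% (56.7 to 64.2) were far. In loci of 10 or more were 93 of the 403. Chromosome 7 stood last by that share, at 38.5% (32.9 to 44.4), with 111 far clusters, and the other autosomes lay between 43.7 and 55.7%. Clusters of 1 locus are not independent, so these intervals are too narrow.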

How the data were processed

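The deposited files give whole read counts, with no normalization stated per the labels: 1 line per cleavage position (3'READS) or per distinct alignment (CLIP). Bowtie, Novoalign and mm9 are listed in the submitters' processing notes, with no role given to either aligner, and filters are not stated. The first base of a chromosome may be 0 or 1 in these files, so coordinates are exact to within 1 nt. Each alignment counted once in each replicate that held it, at its midpoint. In values over both replicates, such as density, an alignment found in both therefore counted for each. PCR copies are not independent molecules, so intervals cover counting error only. Shares have exact (Clopper-Pearson) intervals, medians order-statistic intervals and counts exact Poisson intervals, all at 95%. The interval of a difference between medians was formed from opposite bounds of both median intervals. For independent clusters this makes it wider than a 95% interval of the difference. Clusters of 1 locus are not independent, which acts the other way, so its true coverage is not known. Distances run between the nearest ends of the clusters. The clustering was tested on simulated data. Sites are named by a rule: the 10 far clusters with most alignments in the replicate that had fewer, the longest, densest and farthest (5 each), those with most low-read ends (3), the 4 loci with most far clusters, and 3 on each side of each threshold. The members and this rule were chosen with earlier results of these data known. GRCm38 annotation was at hand and was not used, as the builds differ. Alternatives varied gaps, minimums, distance, placement, replicates and libraries. Computation used scipy 1.17.1 with pandas 2.3.3 under Python 3.11.15, and plots matplotlib 3.10.9.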

Additional observations from a re-analysis of the deposited data

Results flagged for a closer look

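The X chromosome lay outside the autosomal rule. There, 78 of 149 CLIP clusters with 10 or more alignments in each replicate (52.3%, exact interval 44.0 to 60.6) were more than 1000 nt from any same-strand cleavage cluster, a share whose interval includes the 50.1% of the autosomes. It is given because these data entered no other result.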

How the results depend on the processing

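Over 21 settings, 202 alternative values were computed for 11 results; 129 moved by less than their interval or, for the number of far clusters, stayed within 1.5 times, 73 moved further, and no sign reversed. The median length of near clusters was above that of far ones in all 18 alternatives, with no interval including 0. The median density of far clusters was above that of near ones in all 18, but in 6 of them the interval of the difference included 0. Counting each locus once, leaving out the largest locus, and all alternatives for the differences and the ratio of ends were added after seeing the data. The depth limits the map of cleavage sites: 1 read is the least that could show one. No paired analysis was possible because the CLIP samples form 1 group and each 3'READS group has 1 sample. With 1 read per cleavage cluster no low-read end exists, so its share and ratio have no value there. The cause of the other shifts was not tested.

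A minimum of 5 alignments in each replicate gave 16019 far clusters, 60.3% of the qualifying ones, with a median length of 49 nt, 34.3 alignments per 100 nt, a low-read end inside 3.60%, another far cluster within 10 kb of 71.1%, and a ratio of ends of 4.83. A minimum of 20 gave 779, 41.0%, 106 nt, 62.6 alignments per 100 nt, 11.7% and 36.3%, and near clusters 22 nt longer than far ones. Chaining at 25 nt gave a length of 45 nt, 71.8 alignments per 100 nt, 5.18% with an end, 48.9% with a neighbour, a length difference of 7 nt and a density difference of 0.714 (-2.90 to 4.07). Chaining at 100 nt gave 164 nt, 20.7 alignments per 100 nt, 8.61%, 54.2%, a length difference of 40 nt and a ratio of ends of 3.98.

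A distance limit of 500 nt gave 56.6% far, a median distance of 12973 nt, 53.1% with a neighbour and a ratio of ends of 4.48. A limit of 5000 nt gave 36.4% far, 37671 nt, 68.2% with the nearest site downstream, 5.33% with an end, 48.7% with a neighbour and a ratio of 9.41. With 1 read per cleavage cluster, 37.6% were far, at a median of 7312 nt, 51.7% downstream, and 46.4% had a neighbour. With 10 reads these were 58.6%, 27387 nt, 68.2% and 53.1%, and 11.4% had an end inside, where groups below 10 reads counted as ends. The CU5T45 library alone gave 53.6% far, 20644 nt and 52.5% with a neighbour. The oligo(dT)10-25 library alone gave 56.8% far, 23811 nt and 66.9% downstream.

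Counting every CLIP read gave a length of 70 nt and 50.0 per 100 nt. Placing alignments by their 5′ end gave 43.3 per 100 nt, and by their 3′ end 79 nt and 41.8. Leaving out alignments of 50 nt or longer gave 2254 far clusters, 47.3% far, 64 nt, 50.0 per 100 nt and 44.9% with a neighbour. Each locus counted once gave 70 nt and 9.19% with an end. Chaining far clusters at 5 kb left 42.8% with a neighbour, and at 50 kb 66.0%.

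Leaving out either CLIP replicate gave 3691 to 5811 far clusters, 50.5 to 53.1% far, lengths of 62 to 65 nt, 22.9 to 24.3 alignments per 100 nt (lower by construction, as 1 replicate is counted), distances of 18087 to 18624 nt, 63.1 to 63.4% downstream, 5.35 to 6.20% with an end and 50.8 to 56.7% with a neighbour. The length difference was 12 nt without either, the density difference 1.07 to 1.66 and the ratio of ends 5.38 to 6.50.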
